A study of Mus musculus with 2 samples.

Results

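Of 1960 CpG positions that were hypermethylated in fibroblasts lacking oestrogen receptor β, 445 lay in a promoter or an exon and are described here. A position was taken when fewer than 20 % of its reads were methylated in wildtype (wt) and more than 80 % in knock-out (βerko) cells, with at least 5 reads in each, and when the annotation deposited with the data placed it in a promoter or in an exon of a transcript. The 445 positions (22.7 % of the hypermethylated ones, 95 % Wilson confidence interval 20.9 to 24.6 %) belonged to 435 CpGs, since 10 CpGs were taken on both strands. They were drawn from 826937 cytosines that were covered in both cell types, of which 0.237 % were hypermethylated by these thresholds at any location.

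The study compared DNA methylation in mouse embryonic fibroblasts (MEFs) of wt mice with that in MEFs of mice with the genotype ESR2 -/-, in which both copies of the gene for oestrogen receptor β (ERβ) are disrupted. Both were of the strain C57BL/6 and were grown in the same medium with serum, and the labels name no treatment. Each cell type is represented by 1 library of reduced representation bisulfite sequencing (RRBS), made from pooled DNA of 3 batches. In RRBS, genomic DNA is cut at CCGG by the enzyme MspI, fragments of 160 to 340 bp are converted with bisulfite, and cytosines that still read as cytosine are counted as methylated. The pooling leaves no replicates, so differences between wt and βerko MEFs cannot be told apart from differences between these 2 libraries or cell cultures, and no p-value is given.

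DNA methylation in mammals sits mainly on CpG dinucleotides, where the cytosines of both strands are usually methylated together. Promoters rich in CpGs are mostly free of methylation, whether or not the gene is transcribed, and methylation there accompanies stable silencing. In transcribed gene bodies, exons are commonly methylated. Genes of the homeobox family, whose proteins set up the body axes and organs, often lie in long stretches of unmethylated CpGs.

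The sequences below show how the members are placed in the genome (reference sequence of build NCBIM37, which is mm9, plus strand, 5′ to 3′, with CpGs of members in capitals). The first 4 are from homeobox genes in which members lay close together. The next 4 are runs outside that family, and the last is the member read most deeply in both libraries.
Hoxd3, chr2:74574138-74574211: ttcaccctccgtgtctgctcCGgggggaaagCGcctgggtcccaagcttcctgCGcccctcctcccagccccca
Pitx1, chr13:55930089-55930212: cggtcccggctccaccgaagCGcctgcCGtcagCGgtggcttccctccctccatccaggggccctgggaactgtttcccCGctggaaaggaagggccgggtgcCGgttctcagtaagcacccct
Lhx2, chr2:38207767-38207833: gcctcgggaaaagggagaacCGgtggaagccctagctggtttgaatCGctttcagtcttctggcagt
Hoxa11, chr6:52195020-52195072: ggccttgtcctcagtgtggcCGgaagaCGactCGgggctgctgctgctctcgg
AI464131, chr4:41445392-41445462: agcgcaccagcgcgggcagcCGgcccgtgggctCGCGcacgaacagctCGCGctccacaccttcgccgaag
D230002A01Rik, chr8:94329461-94329586: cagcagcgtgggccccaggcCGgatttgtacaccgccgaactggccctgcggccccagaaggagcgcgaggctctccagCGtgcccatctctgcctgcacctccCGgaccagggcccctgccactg
Megf6, chr4:153598275-153598345: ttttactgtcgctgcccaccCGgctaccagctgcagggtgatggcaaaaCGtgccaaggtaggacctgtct
Wnt3a, chr11:59097834-59097879: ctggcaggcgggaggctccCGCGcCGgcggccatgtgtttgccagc
Dtx1, chr5:121160055-121160095: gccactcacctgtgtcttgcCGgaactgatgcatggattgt
Each of these windows holds at least 1 ccgg, the site cut by MspI, where sequenced fragments begin. Of all 445 members, 280 (62.9 %) were CpGs of a CCGG. This held for 39.1 % of the covered positions and 27 % of those below 20 % in wt MEFs. It held for 74.3 % of the 1515 hypermethylated positions elsewhere. At 439 members the 31 bases centred on the cytosine occurred once in the genome. The other 6, of which 2 were at Gm9735, had at least 1 further exact copy, so that their reads could stem from another place. At AK157018 the 31 bases occurred 1240 times. Copies were counted in the unconverted sequence without mismatch. A single copy therefore does not show that bisulfite-converted reads mapped to 1 place only.

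Members were selected on the methylation percentages and read counts of both libraries, which are therefore given as a description only. Methylation had a median of 11.8 % in wt MEFs, with a highest value of 19.6 %, and a median of 90.9 % in βerko MEFs, with a lowest value of 80.4 %. In wt MEFs 71 members had no methylated read, in βerko MEFs 95 had no unmethylated read, and at 15 both applied. Just outside the thresholds, and regardless of coverage, 50 positions in promoters or exons of gene models stood at exactly 20 % in wt and above 80 % in βerko MEFs. Another 25 such positions stood at exactly 80 % in βerko and below 20 % in wt MEFs. A further 37 positions met all criteria but had exactly 4 reads in a library.

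Median coverage of the members was 26 reads in wt MEFs (range 5 to 170) and 27 in βerko MEFs (range 5 to 104). At least 20 reads in both libraries were found at 233 members (52.4 %), and 107 members (24 %) had between 5 and 9 reads in at least 1 library. Exact binomial 95 % intervals of the libraries were apart at 423 members (95.1 %). These intervals cover counting error only, since reads amplified in 19 PCR cycles without molecular identifiers are not independent molecules. The depth of neighbouring positions was not used here, so that their means weight each position equally.

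By the deposited annotation, 90 members were in promoters only, 79 in a promoter and an exon, and 276 in an exon outside promoters. Promoters therefore held 169 members (38 %, 33.6 to 42.6 %). Promoters in this annotation include those of alternative transcripts, and 84 of the 169 (49.7 %) lay between 500 bp before and 100 bp after a transcription start of the GENCODE gene models. In these gene models 179 members (40.2 %) were in coding sequence, compared with 17.8 % of covered positions. The 3′ untranslated regions held 55 members (12.4 % against 2.19 % of covered positions), and the 5′ untranslated regions 42 (9.44 % against 16.2 %). Of the 355 exonic members, 251 (70.7 %) were in an exon of a mouse RefSeq or Ensembl transcript, and the other exon labels rest on other transcript collections.

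Hypermethylation was rare among the positions of gene-model promoters. Of the promoter positions that were below 20 % in wt MEFs, 0.0613 % were above 80 % in βerko MEFs, regardless of coverage. The share was 0.349 % in exons outside promoters and 1.28 % in the remaining genome. Members were found on every autosome and on chromosome X. Chromosomes 4 and 11 held 58 and 64 members, which were 9.89 and 9.86 per 10000 covered positions, whereas chromosome 16 held 4, or 1.67 per 10000.

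The sequence around the members was poorer in CpGs than that of other positions with low methylation in wt MEFs. In the 201 bp centred on a member there was a median of 7 CpGs (quartiles 4 and 13), compared with 22 (16 and 28) around all covered positions below 20 % in wt. Around the 1515 hypermethylated positions outside promoters and exons the median was 4 (3 and 6). Windows with more than 50 % G and C and an observed-to-expected CpG ratio above 0.6 surrounded 123 members (27.6 %, 23.7 to 32 %). Such windows surrounded 6.8 % of the other hypermethylated positions and 93.2 % of the gene-model promoter and exon positions below 20 % in wt. Members in promoters lay in such windows at 31.4 % and exonic members outside promoters at 25.4 %.

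**Figure D1:**
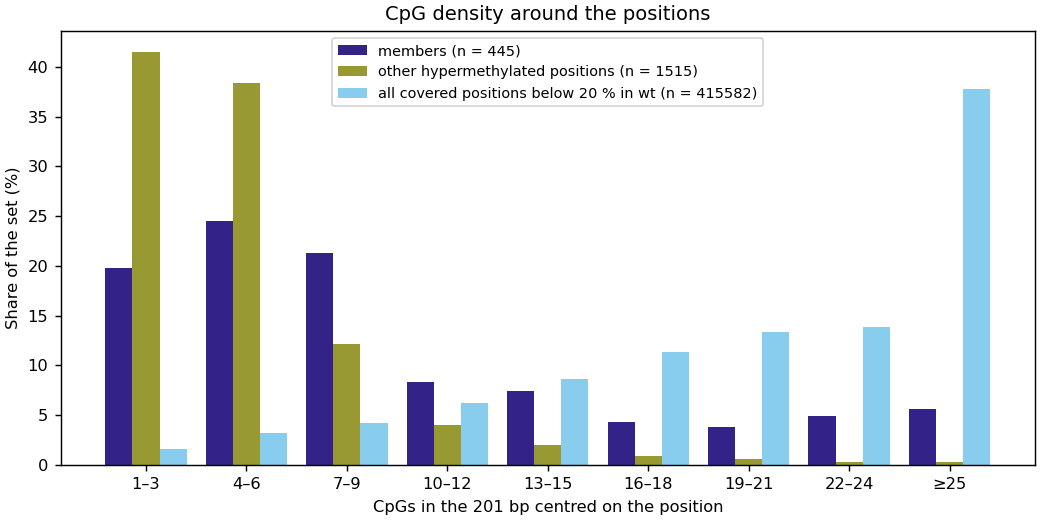
Number of CpGs in the 201 bp centred on each position (x axis, in bins) against the share of each set (y axis, percent), for 445 members, 1515 other hypermethylated positions and 415582 covered positions below 20 % methylation in wt MEFs. Most members had fewer than 10 CpGs in the window, whereas 37.8 % of all positions low in wt had 25 or more, a number reached by 5.62 % of the members.

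Binding motifs were searched on both strands in the same windows, as a description of the letters only. The AP2 motif GCCNNNGGC was present around 82 members (18.4 %), around 22.7 % of covered positions and around 9.9 % of the 1515 other hypermethylated positions. The windows differ in G and C content, with medians of 58.2 %, 63.2 % and 52.7 % in the same order. The part of this in the shares was not tested. The E-box CAGCTG was found at 14.8 % of members and 12 % of covered positions, and the E-box CACGTG at 4.49 and 4.53 %. At the other hypermethylated positions these shares were 14.4 % and 2.31 %. A palindromic oestrogen response element, GGTCA and TGACC with 3 bases between them, was found at 0 of 445 members, for which the Wilson interval reaches 0.856 %. Its share was 0.0206 % of covered positions and 0.066 % of the other hypermethylated positions.

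The CpGs next to the members, other than those that were members too, were not used by the rule and show whether a stretch or a single CpG had a higher value in βerko MEFs. Other covered positions within 100 bp, leaving out the same CpG on the opposite strand, were present at 351 members, with a median of 4. Such neighbours can lie on the same sequenced fragments as the member. The mean methylation of the neighbours had a median of 34.9 % in wt MEFs and 70.8 % in βerko MEFs. It was higher by more than 20 percentage points in βerko MEFs at 140 members (39.9 %, 34.9 to 45.1 %) and lower by more than 20 points at 22 (6.27 %). Among all covered positions with neighbours these shares were 3.78 % and 8.12 %. Among covered positions below 20 % in wt, as all members are, they were 1.25 % and 1.77 %. Against these positions, both gains and losses were more frequent around members. Without neighbours that were hypermethylated themselves, 35.6 % of the members had a neighbourhood with such a gain (30.8 to 40.8 %). Of 2150 single neighbour measurements, 688 (32 %) were more than 20 points higher in βerko MEFs, compared with 6.6 % of all covered positions. These measurements include neighbours that were hypermethylated themselves, and a position near several members counts for each of them. Hypermethylated neighbours are also included in the neighbourhood values below unless stated.

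Other members differed from their surroundings, and 90 had neighbours of intermediate or mixed values. The neighbours of 63 members (17.9 %) averaged above 80 % methylation in both cell types, so that the member stood out by its low value in wt MEFs. Such neighbours were found at 0.476 % of all positions below 20 % in wt. The neighbours of 36 members (10.3 %) averaged below 20 % in both, so that the member stood out by its high value in βerko MEFs. Among all positions below 20 % in wt, 91.0 % had neighbours low in both. Coverage differed between these classes. Members among neighbours low in both had 8 wt and 13 βerko reads at the median, and members among neighbours high in both had 35 and 40. Of the latter, 84.1 % were CpGs of a CCGG. Among members with at least 20 reads in both libraries, 2.4 % had neighbours low in both, 26.3 % had neighbours high in both and 45.5 % had neighbours that gained. The part of coverage in these shares was not tested further.

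The neighbourhoods of promoter members had lower methylation in both cell types than those of exonic members outside promoters. In promoters, neighbours had a median of 20.7 % in wt MEFs and of 47.2 % in βerko MEFs, and 57 of 133 neighbourhoods gained (42.9 %, 34.8 to 51.4 %). Around exonic members outside promoters the medians were 47.7 and 78.8 %, and 83 of 218 gained (38.1 %, 31.9 to 44.7 %). Neighbours high in both were found at 9.77 % of the former (5.8 to 16.0 %) and 22.9 % of the latter (17.9 to 29.0 %). Around the other hypermethylated positions 45.5 % of neighbourhoods gained (42.4 to 48.7 %), an interval that overlaps that of the members.

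**Figure D2:**
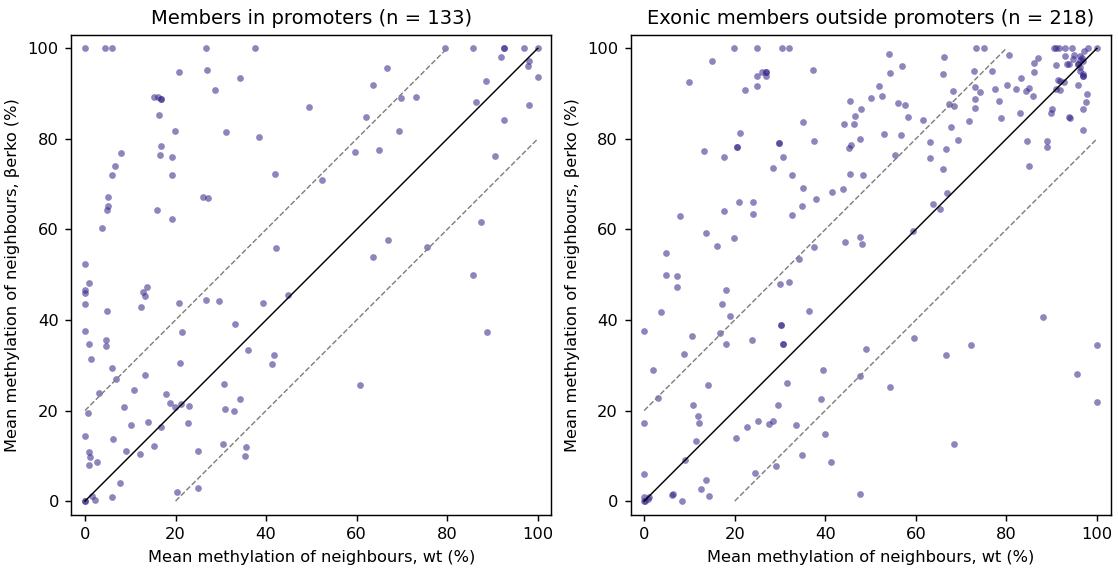
Mean methylation of the covered positions within 100 bp of each member in wt MEFs (x axis, percent) and βerko MEFs (y axis, percent), for 133 members in promoters and 218 exonic members outside promoters. Points above the upper dashed line gained more than 20 percentage points (42.9 % and 38.1 %), the solid line marks equal values, and the group of points in the upper right corner of the right panel are neighbourhoods high in both cell types.

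Single members with deep coverage show these classes. Dtx1, which encodes an E3 ligase of the Notch pathway, had in its coding sequence, at 121160075 on chromosome 5, a member with 1.42 % methylation of 141 reads in wt (exact interval 0.172 to 5.03 %) and 98.1 % of 104 reads in βerko MEFs (93.2 to 99.8 %). Its 3 neighbours averaged 45.5 % in wt and 72.3 % in βerko MEFs. At the start of Ndrg1, a gene induced by stress and differentiation, a member at 66766038 on chromosome 15 had 14.2 % of 134 wt reads and 95.9 % of 98 βerko reads. The 1 covered neighbour of this member had 97.0 and 100 %. In the 5′ untranslated region of Fgf17, a fibroblast growth factor of the developing brain, a member at 71041820 on chromosome 14 had 5.77 % of 104 reads and 81.2 % of 101 reads. Its 9 neighbours averaged 16.9 % in wt and 16.5 % in βerko MEFs, and 1 of them was more than 20 points higher in βerko MEFs.

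The other deeply read members were as mixed. In Col7a1, the collagen of anchoring fibrils, a coding member at 108875370 on chromosome 9 had 9.4 % of 117 wt reads and 86.7 % of 90 βerko reads beside 1 neighbour at 94.4 and 100 %. A promoter member of Cys1, which encodes a protein of the cilium, at 25366626 on chromosome 12 had 12.9 % of 139 wt reads and 81.9 % of 94 βerko reads, and its 2 neighbours averaged 88.9 % in wt and 37.3 % in βerko MEFs. At Fgf8, a signalling factor of limb and brain development, a member at 45813177 on chromosome 19, assigned to a promoter and intronic in the gene models, had 7.79 % of 77 reads and 97.6 % of 84 reads, and its neighbour had 49.4 and 87.1 %. Slc7a7, an amino acid transporter subunit, had members on both strands of 1 CpG, with 10.1 and 13.7 % in wt and 90.6 and 91.4 % in βerko MEFs, and no other CpG covered within 100 bp. Metrnl, which encodes a secreted protein, held the member with the most reads in wt, 15.9 % of 170 reads, and 80.5 % of 82 reads in βerko MEFs.

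The opposite strand of the same CpG gives another reading from other molecules, because the strands are sequenced separately after bisulfite treatment. It was covered at 80 members. Its methylation had a median of 20 % in wt MEFs and of 89.1 % in βerko MEFs, and it was more than 20 percentage points higher in βerko MEFs at 54 (67.5 %, 56.6 to 76.8 %). Among all covered positions with a covered opposite strand, 5.02 % had a strand partner with such a gain. As 20 of the 80 opposite positions were members too, their values were used by the rule. Of the other 60, 34 were higher by more than 20 points (56.7 %, 44.1 to 68.4 %), with medians of 29.2 % in wt MEFs and of 78.2 % in βerko MEFs.

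Strands disagreed at some CpGs. The opposite strand was above 80 % in both cell types at 6 members and below 20 % in both at 9. At Nr5a1, which encodes the nuclear receptor SF-1 and is the only member gene among nuclear receptor genes, the member had 0 % of 9 wt reads and 86.4 % of 22 βerko reads, and the opposite cytosine had 100 % in both. At 1700030C10Rik the 3 members of a run had 16.7, 0 and 0 % of 6 reads in wt MEFs and 95, 100 and 85.0 % of 20 reads in βerko MEFs. Their opposite strands had 25, 0 and 0 % in wt and 0 % at each CpG in βerko MEFs. This was the only gene in which an opposite strand had a lower value in βerko MEFs. With members of at least 10 reads in both libraries, the share of opposite strands that gained was 78.8 % (66.0 to 87.8 %), and with at least 20 reads it was 87.5 % (71.9 to 95 %). Both shares include opposite positions that were members themselves, whose values the rule used. The shares without them were not computed at these depths.

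**Figure D3:**
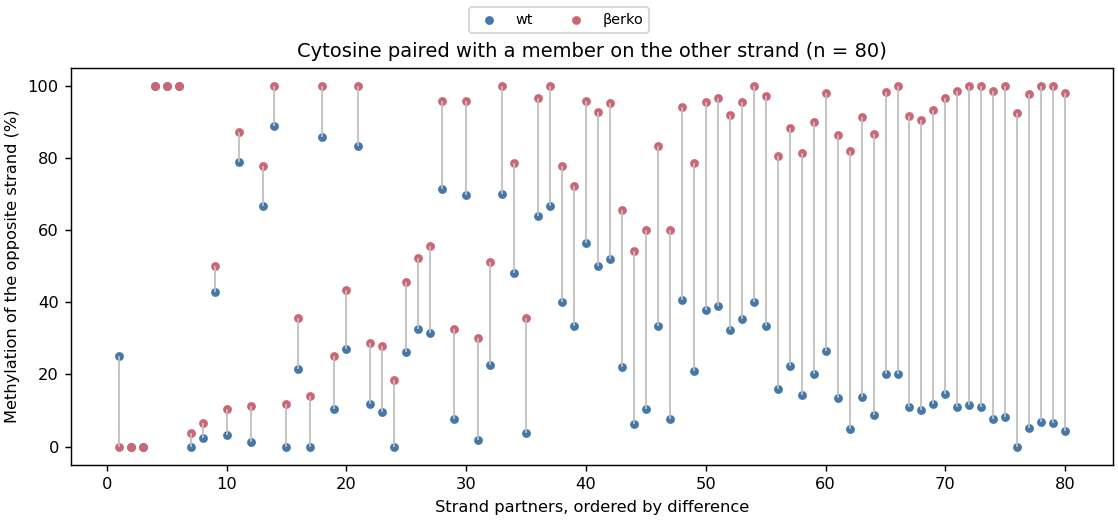
Methylation (y axis, percent) of the 80 cytosines that pair with a member on the other strand of the same CpG, in wt and βerko MEFs, ordered along the x axis by the difference between them. The grey lines join the values of a cytosine, and 54 of the 80 gained more than 20 percentage points while 1, at 1700030C10Rik, was lower in βerko MEFs. Of the 80, 20 were members too.

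Few members lay in runs. In total 36 members (8.09 %) formed 10 runs of at least 3 members with gaps of up to 100 bp, and members of a run on the same strand can be read from the same molecules. Runs of 5 were found at Pitx1 and AI464131, runs of 4 at Hoxd3 and D230002A01Rik, and runs of 3 at Wnt3a, 1700030C10Rik, Lhx2, Megf6, Hoxa11 and Akt1s1. With at least 10 reads in both libraries there were 6 runs, and with at least 20 reads 5.

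At Hoxd3, a homeobox gene of axial patterning, the 4 members of the run lay upstream of the nearest start. They had 11.5, 14.4, 15.4 and 12 % methylation in wt and 100, 81.5, 90.5 and 90.5 % in βerko MEFs. The members at 11.5 and 14.4 % are the strands of 1 CpG, and the second of these was read 104 times in wt and 81 times in βerko MEFs. A covered neighbour within 100 bp had 23.1 and 85.2 %. Within 500 bp of this run, 8 of the 19 other covered positions gained more than 20 points and 2 lost as much.

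Lhx2, a LIM homeobox gene of forebrain and eye development, had the most members of any gene, 8, of which 6 were in its promoter and 2 in coding sequence. The 3 members of its run lay within 101 bp of the start and had 2.25 % of 89 reads, 14.1 % of 92 reads and 11.5 % of 96 reads in wt MEFs. In βerko MEFs they had 100 % of 67 reads, 92.3 % of 39 reads and 100 % of 54 reads. The pair shown above, upstream of the start, had 12.1 and 6.06 % of 33 reads in wt and 100 % of 17 reads each in βerko MEFs. Of the 12 other covered positions within 500 bp of the run, 11 gained more than 20 points, with medians of 25.5 % in wt MEFs and of 94.9 % in βerko MEFs. The gene as a whole moved less, from a mean of 33.1 to 39.0 % over 183 covered positions, and also held 4 hypomethylated positions.

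Pitx1, a homeobox gene of hindlimb and pituitary development, held 7 members, each assigned to a promoter and each in an intron of the gene models, 2294 to 2677 bp downstream of the nearest start. The 5 members of the run had between 0 and 9.52 % methylation in wt and between 83.3 and 100 % in βerko MEFs, at 11 to 29 and 6 to 25 reads. The other pair had 0 and 1.92 % of 52 wt reads and 94.4 and 86.1 % of 36 βerko reads. Of the 7 other covered positions within 500 bp, 5 gained more than 20 points and none lost as much. Over the whole gene the direction was the opposite, since the mean of 164 covered positions was 63.8 % in wt and 32.7 % in βerko MEFs, and 38 of them were hypomethylated.

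Members at the posterior HoxA genes, which pattern limbs and the reproductive tract, had fewer reads in wt than in βerko MEFs. At Hoxa11 the 3 members of a run in coding sequence had 0 % of 6 wt reads and 100, 90 and 96.7 % of 30 βerko reads. Of the 38 other positions within 500 bp, 23 gained more than 20 points, and their medians were 0 % in wt and 29.2 % in βerko MEFs. Hoxa10 had 2 members in the 3′ untranslated region, with 0 and 10.0 % of 10 wt reads and 90.7 and 100 % of 54 βerko reads. Hoxa9 had 1 coding member, at 52175743 on chromosome 6, with 0 % of 7 reads and 91.3 % of 23 reads, and its 12 neighbours averaged 0.694 % in wt and 19.5 % in βerko MEFs. The means over all covered positions of Hoxa10 were 0.599 and 29.2 % (67 positions) and those of Hoxa11 0.411 and 27.7 % (70 positions). Hoxd9, in the same family, had no member and went the other way, from 94.2 to 3.98 % over 75 positions.

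**Figure D4:**
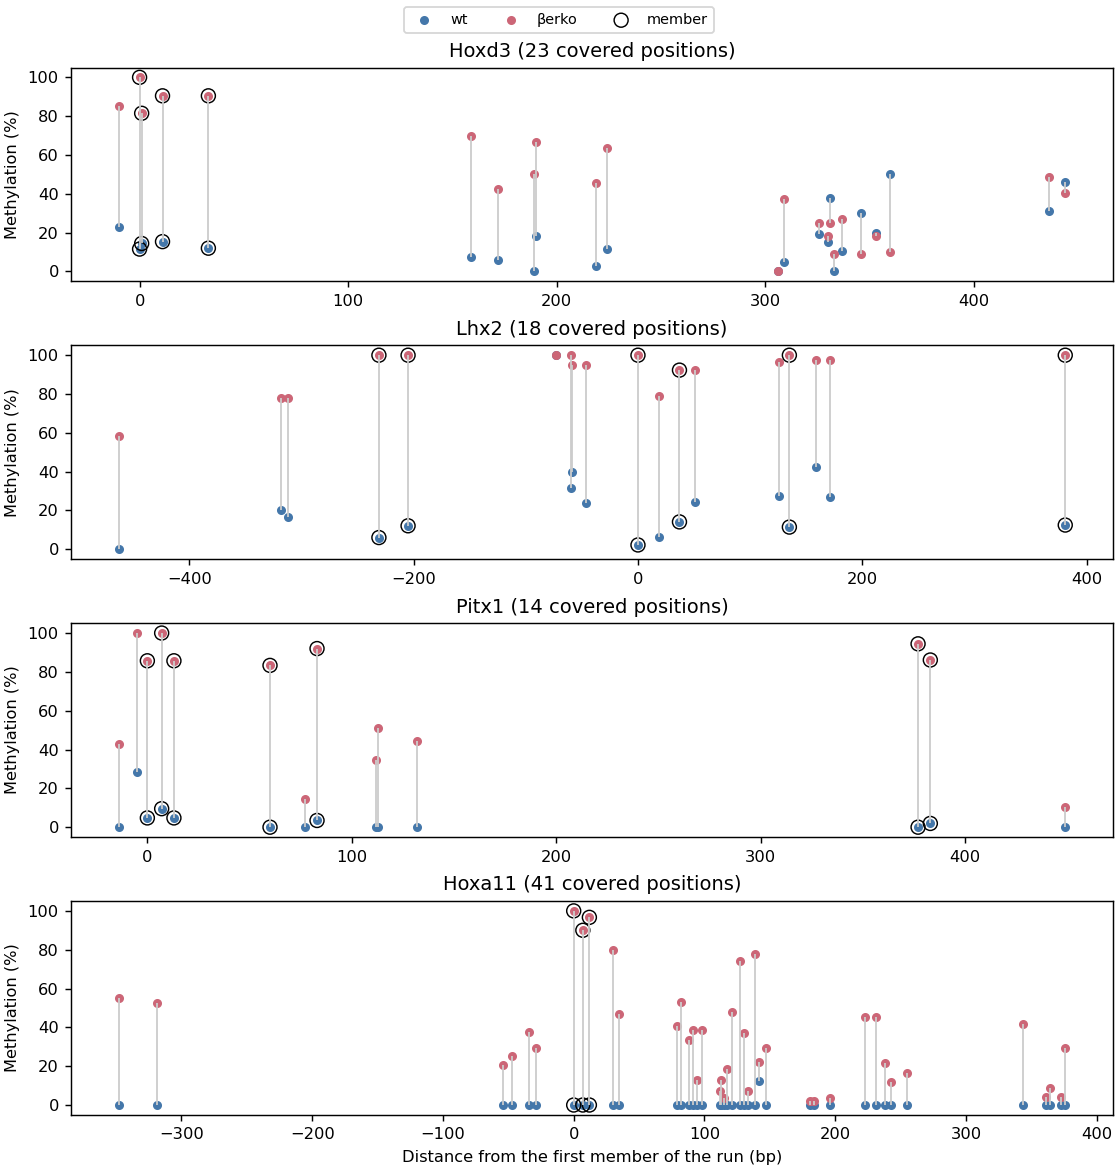
Methylation (y axis, percent) of every covered position within 500 bp of the runs at Hoxd3, Lhx2, Pitx1 and Hoxa11 in wt and βerko MEFs, by distance from the first member of the run on the plus strand (x axis, bp), with members ringed and grey lines joining the values of a position. The other positions had a median of 94.9 % in βerko MEFs at Lhx2 and of 29.2 % at Hoxa11, where single positions reached up to 80 %.

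Outside the homeobox family, the run of 5 in the coding sequence of AI464131 spanned 31 bp and averaged 8.83 % in wt and 97.2 % in βerko MEFs, at 37 to 39 and 21 to 22 reads. The run in an exon of D230002A01Rik averaged 12.1 and 89.9 %, and 17 of 21 other positions within 100 bp gained more than 20 points. The run of Megf6, which encodes a protein with EGF repeats, averaged 9.57 and 87.0 %. That of Wnt3a, a Wnt ligand, averaged 6.06 and 85.9 % in a position exonic by the deposited annotation and intronic in the gene models. The run in coding sequence of Akt1s1, which encodes an inhibitor of mTORC1, was also assigned to Ap2a1 and was covered by 5 or 6 reads in βerko MEFs. Ube2j2, a ubiquitin-conjugating enzyme, had 3 members in its 3′ untranslated region of the opposite kind. They had 4.17, 4.35 and 0 % in wt and 100, 98.0 and 92.3 % in βerko MEFs, and the means of their neighbours were between 92.9 and 98.2 % in both cell types.

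The members carried 449 gene names, of which 407 had 1 member, 25 had 2 and 17 had 3 or more. A member can carry several names, as 77 did, and 6 carried none. Hypomethylated promoter or exon positions were present at 102 of these genes, which are 22.7 % of the genes with a member and 6.71 % of the 1520 genes with such hypomethylated positions. The share of all covered genes with such positions was not computed, so this overlap cannot be judged against it. Over gene models, 2 % of 18513 genes with a covered promoter or exon position had a member.

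Homeobox genes held 43 members (9.66 %), at 21 of 178 covered genes (11.8 %, against 2 % of all). These genes have more covered positions, a median of 47 against 18 for all covered genes, and the part of this in the share was not tested. In promoters were 25 of the 43 (58.1 %, 43.3 to 71.6 %), compared with 144 of the 402 other members (35.8 %, 31.3 to 40.6 %). Neighbourhoods gained at 31 of 41 homeobox members (75.6 %, 60.7 to 86.2 %) and at 109 of 310 others (35.2 %, 30.1 to 40.6 %). Neighbours that were members themselves count in both shares. Homeobox members formed the runs at Pitx1, Hoxd3, Lhx2 and Hoxa11, and other members formed the remaining runs. The shares without such neighbours were not computed for this split. None of the 41 had neighbours high in both, and none had neighbours that lost more than 20 points. Median coverage was 26 and 23 reads at homeobox members and 27 reads in both libraries at the others. As several of these members lie in the same gene, they are not independent of each other.

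Besides the genes above, those with members included Hoxb2, Hoxb5, Hoxb6, Hoxc5, the LIM homeobox genes Lhx5, Lhx6 and Lhx9, and Alx4, En1, Gbx1, Irx6, Prox2, Six2 and Vax1. The promoter and coding member of Lhx6, a gene of forebrain interneurons, had 17.5 % of 40 wt reads and all of 14 βerko reads, and its opposite strand had 32.4 and 91.9 %. In Hoxc5 a member of the 3′ untranslated region had 13.4 % of 67 reads and 85.2 % of 61 reads, with neighbours at 28.4 and 73.7 %. Vax1, a gene of the optic stalk, had a promoter member with 12 % of 25 and 94.7 % of 19 reads, and Lhx9, a gene of gonad and limb development, one with 9.09 % of 11 and 94.1 % of 17 reads. En1, which patterns midbrain and limb, differed from these. Its promoter member had 18.4 % of 38 wt reads and 94.4 % of 18 βerko reads, and its 14 neighbours averaged 32.8 and 20.0 %. At Gbx1 the 26 neighbours likewise averaged 33.4 and 16.8 %.

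**Figure D5:**
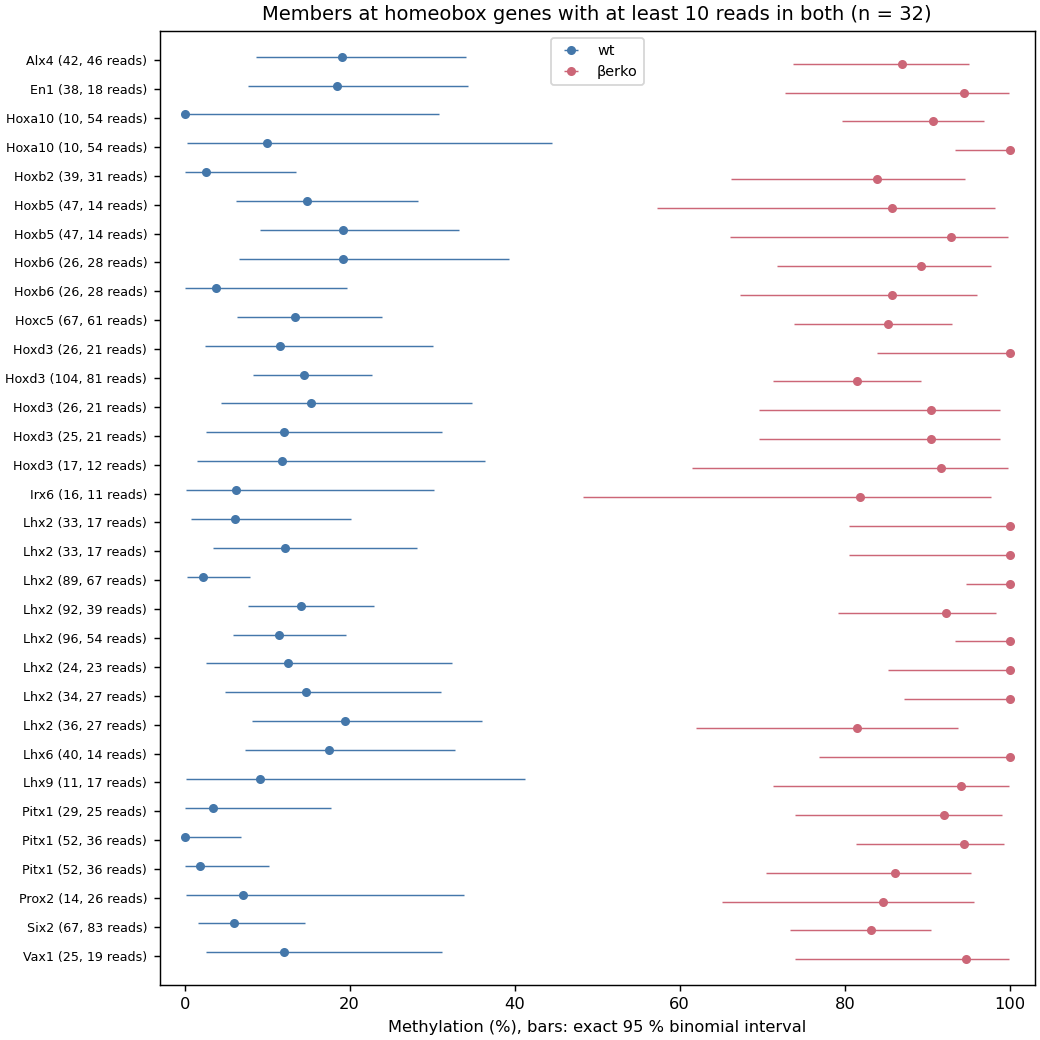
Methylation (x axis, percent) of the 32 members at homeobox genes with at least 10 reads in both wt and βerko MEFs, 1 row per member with its gene and the number of reads in wt and βerko MEFs, and bars for the exact 95 % binomial interval. All points lie below 20 % in wt and above 80 % in βerko MEFs because the rule chose them so, and the bars are wide at members with few reads, such as that of Irx6 with 16 and 11 reads.

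Other gene groups held fewer members, and the shares of their genes are again to be read beside the 2 % of all covered genes. These groups also have more covered positions per gene than the median of 18 over all covered genes, from 23 in imprinted genes to 44 in the other developmental transcription factor genes, and the part of this in the shares was not tested. Other developmental transcription factor genes had 15 members at 12 of 217 covered genes (5.53 %, against 2 % of all), and 4 of their 14 neighbourhoods gained. Among these Tbx4, a T-box gene of hindlimb and lung development, had 3 members with 15.4, 8.33 and 14.7 % in wt and 91.2, 100 and 92.9 % in βerko MEFs, and the neighbours of each gained. Sim1, a factor of the hypothalamus, had a promoter member with 10.0 % of 30 reads and 94.1 % of 17 reads, while its 25 neighbours averaged 22.9 and 21.0 %. Listed genes of the Wnt, TGF-β, FGF, Hedgehog and Notch pathways had 15 members at 12 of 186 genes (6.45 %), and 6 of 13 neighbourhoods gained. Dtx1, described above, is not on this list and is not counted. The promoter member of Lefty2, a Nodal inhibitor, had 14.8 % in wt and 96.3 % in βerko MEFs, at 27 reads in both and without covered neighbours.

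Listed ion channel and synaptic genes had members at 13 of 160 genes (8.12 %, against 2 % of all), and 4 of 13 neighbourhoods gained. They had a median of 34 covered positions per gene. The list is not complete, and Hcn2, Hcn4, Kcnk16, Chrna7 and Trpv4, among others outside it, also had a member. The promoter of the potassium channel Kcnn3 held one with 3.7 % of 27 and 83.3 % of 18 reads, whose 6 neighbours averaged 42.1 % in wt and 55.9 % in βerko MEFs. Extracellular matrix and adhesion genes had 8 members at 5 of 135 genes (3.7 %). They include a pair in Col11a2, a cartilage collagen, with 15.4 % each of 26 reads and 84.0 and 92.0 % of 25 reads, and a promoter member of the protease Mmp17 with 11.3 % of 106 and 88.5 % of 61 reads.

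Imprinted genes had members at 4 of 49 genes, namely Gnas, Grb10, H19 and Slc22a18. The promoter member of Grb10, an inhibitor of growth factor signalling, had 15.8 % of 19 wt reads and 82.4 % of 17 βerko reads, with 10 neighbours at 17.9 and 23.7 %. The member in an exon of H19, a noncoding RNA, had 18.5 % of 27 reads and 84.8 % of 33 reads, with its neighbour at 36.4 and 42.0 %. The remaining lists had members at 2 of 56 tumour suppressor and cell cycle inhibitor genes (Ndrg1 and Nf2, 3.57 %), at 1 of 46 nuclear receptor genes (2.17 %) and at 1 of 95 genes for DNA methylation and chromatin enzymes (1.05 %), the last 2 shares being close to or below the 2 % of all covered genes. The last was Dnmt3a, a de novo DNA methyltransferase, with 18.5 % of 27 wt reads and 100 % of 72 βerko reads. Its neighbour had 96.2 and 95.8 %. The lists do not hold every gene of a group, so these shares are those of the listed genes. Nsd1, which is not on the list, had a coding member with 6.06 % of 66 wt reads and 98 % of 50 βerko reads.

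Of further genes that the study examined, Fstl4, which encodes a follistatin-like protein, had a promoter member at 52578040 on chromosome 11, just upstream of its start, with 6.25 % of 16 wt reads and 100 % of 7 βerko reads. The opposite strand had 71.4 and 95.7 %, and the 7 neighbours averaged 8.67 and 20.7 %. A further member within the span of Fstl4 was assigned to the promoter of Gm11186, with 3.12 % of 64 reads and 96.3 % of 54 reads. Tnfaip2, a gene induced by tumour necrosis factor, had a member in its 5′ untranslated region, at 112680769 on chromosome 12, with 0 % of 14 reads and 87.5 % of 8 reads, whereas its 6 neighbours averaged 36 and 33.3 %. Dyx1c1, Slc2a4 and Esrrg had no hypermethylated position, and Trim2 had 1 outside promoters and exons. Esr2, the disrupted gene, had no member and averaged 52.0 % in wt and 44.6 % in βerko MEFs over 22 covered positions, values that do not test the null allele.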

How the data were processed

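The authors prepared 1 RRBS library each from wt and βerko MEFs, with DNA of 3 batches pooled. Reads were mapped with the Genomatix mining station and annotated with RegionMiner, and the submitters' processing notes also list CASAVA 1.4 and mm9. The authors deposited percent methylation for the cytosines that both libraries covered, and read counts per position with the annotation for the differentially methylated positions. All positions were CpG cytosines in NCBIM37.

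Members were taken by the thresholds given above, and read counts times percent gave whole methylated reads at all 445 within 0.006 percentage points. Gene symbols came from the annotation or, for promoters, from gene identifiers through a RefSeq gene table. Gene structure was taken from GENCODE vM1. Neighbours were averaged within 100 bp, leaving out the paired strand. A promoter of the gene models was the stretch between 500 bp before and 100 bp after a start.

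No test was made, since the rule used the methylation of both libraries and there are no replicates. Shares have 95 % Wilson intervals and single positions exact ones. The members and the 9 gene lists were chosen with earlier results of these data known. The lists do not hold every gene of each group. Named were members of runs, genes with at least 3 members, members read most deeply, genes examined by the study, and promoter members of the lists with at least 10 reads, of which examples are given. Results at some genes are not reported here. The selection procedures were tested on simulated data. Alternatives covered coverage, thresholds, windows, gene models and strands. Calculations used Python 3.11.15, NumPy 2.4.6, pandas 2.3.3, SciPy 1.17.1 and matplotlib 3.10.9.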

Additional observations from a re-analysis of the deposited data

How the results depend on the processing

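No paired analysis was possible because each cell type is 1 library. Of 41 alternatives, 23 left the value within 1.5 times of a count or within the confidence interval of a share. With at least 20 reads there were 233 members at 236 genes in 5 runs, 33.5 % of the members were in promoters, 45.5 % had a gaining neighbourhood and 87.5 % of strand partners gained. With at least 10 reads there were 6 runs, and 78.8 % of strand partners gained. With thresholds of 10 and 90 % methylation there were 94 members at 98 genes, with 1 run. With at least 2 members per run there were 33 runs. By the gene models in place of the deposited annotation, 31 % were in promoters. Neighbourhoods gained at 46.3 % of members within 50 bp and at 32.1 % within 200 bp, and with a required gain of 10 or 40 percentage points at 53.3 and 21.1 %. With 40 points, 50 % of strand partners gained. The shares of strand partners in this section include partners that were members themselves, whose values the rule used. Chosen after seeing the data, neighbourhoods without hypermethylated neighbours gained at 35.6 % of members. Members with 5 to 9 reads carry the widest intervals, and 1 library per cell type leaves the spread between cultures unknown.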
